A study of Mus musculus with 8 samples.

Results

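Cell adhesion molecules of the immunoglobulin superfamily were followed in C3H10T1/2 cells, a mouse mesenchymal cell line, after treatment with sphingosine 1-phosphate (S1P) or vehicle. The set was a list of 10 gene symbols (Mcam, Icam1, Icam2, Icam5, Vcam1, Alcam, Ncam1, Bcam, Jam2 and Jam3), matched by symbol to the deposited count table of 18306 genes. Of these 10, 9 were found and Icam2 was not found under that symbol. Among the 9, Bcam did not pass the filter on low counts, so 8 members entered the test, of 11844 genes tested in all. The list was chosen from S1P-against-vehicle values in these same libraries. The members' differences between S1P and vehicle are therefore given as a description and support nothing by themselves.

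After 24 h in medium without serum, cells received 5 µM S1P (libraries S1P 5 to 8, n = 4) for a further 24 h or, for the same time, 0.1% fatty acid-free bovine serum albumin, the vehicle (libraries vehicle 1 to 4, n = 4). The labels give no albumin content for the S1P libraries, so whether both groups received albumin is not stated. S1P is a bioactive sphingolipid recognised by G protein-coupled receptors of the plasma membrane. The line was established from mouse embryos, and the labels give no genetic difference between the groups. Separate cultures for the libraries are not stated in the labels, so any p-value measures only the spread between these samples, which may be technical.

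Immunoglobulin-type adhesion molecules are membrane proteins whose extracellular immunoglobulin domains bind partners on a neighbouring cell or in the matrix. Some bind a copy of themselves, some bind another family member, and the ICAM and VCAM branches are best known as ligands of integrins on leukocytes. Their extracellular parts can be released from the surface by metalloproteinases, and their cytoplasmic tails are linked to actin through adaptor proteins.

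The deposited counts of the 8 libraries summed to nearly equal totals, between 13757793 and 13761544 for S1P and between 13750303 and 13759846 for vehicle. Values below are CPM, counts scaled to the library total and corrected by composition factors. A library with no read for a gene could still hold up to 3 counts of it by counting error, which is 0.213 to 0.223 CPM. Vehicle 4 stood apart, with correlations of 0.929 to 0.947 with the other vehicle libraries, which correlated at 0.969 to 0.988 with each other. Its deviation from them followed the GC content of the transcripts (r = 0.766 across 11634 genes, which are not independent). Mesenchymal markers were abundant, with summed levels of 9856 to 13480 CPM in S1P and 10740 to 17860 CPM in vehicle libraries. Endothelial markers summed to 20.1 to 75.9 CPM in S1P and 39.6 to 90.7 CPM in vehicle libraries, and 7 of the 9 found were under 1 CPM. Nearly all of the sum was Tek, at a mean of 31.2 CPM in S1P and 54.8 CPM in vehicle, and Erg, at 24.7 CPM in S1P and 9.05 CPM in vehicle, neither of which was called. Pecam1 and Cdh5, which define that cell type, averaged 0.0726 and 0.0180 CPM in S1P and 0.253 and 0.0557 CPM in vehicle libraries.

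S1P-treated cells had more Mcam and Ncam1 and less Icam1 and Icam5 RNA than vehicle-treated cells, while Vcam1, the most abundant member, Alcam, Jam2 and Jam3 did not pass the threshold. A gene was called at a Benjamini-Hochberg adjusted p under 0.05 in edgeR's quasi-likelihood test over the whole table. By that rule 4 of the 8 tested members were called, 2 higher and 2 lower in S1P. Over all genes tested, 8.5% were called, 5.6% higher and 2.9% lower. The S1P and vehicle libraries did not overlap for 4 of the 8 members (Mcam, Ncam1, Icam5 and Jam3), against 19.1% of all genes. Because the members were picked with this contrast in view, nothing is read from these shares. The median log2 fold change (S1P minus vehicle) of the 8 members was -0.26, beside -0.04 for all tested genes. In RNA from whole cultures, fewer cells expressing a gene and less of its RNA per cell cannot be told apart.

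**Figure D1:**
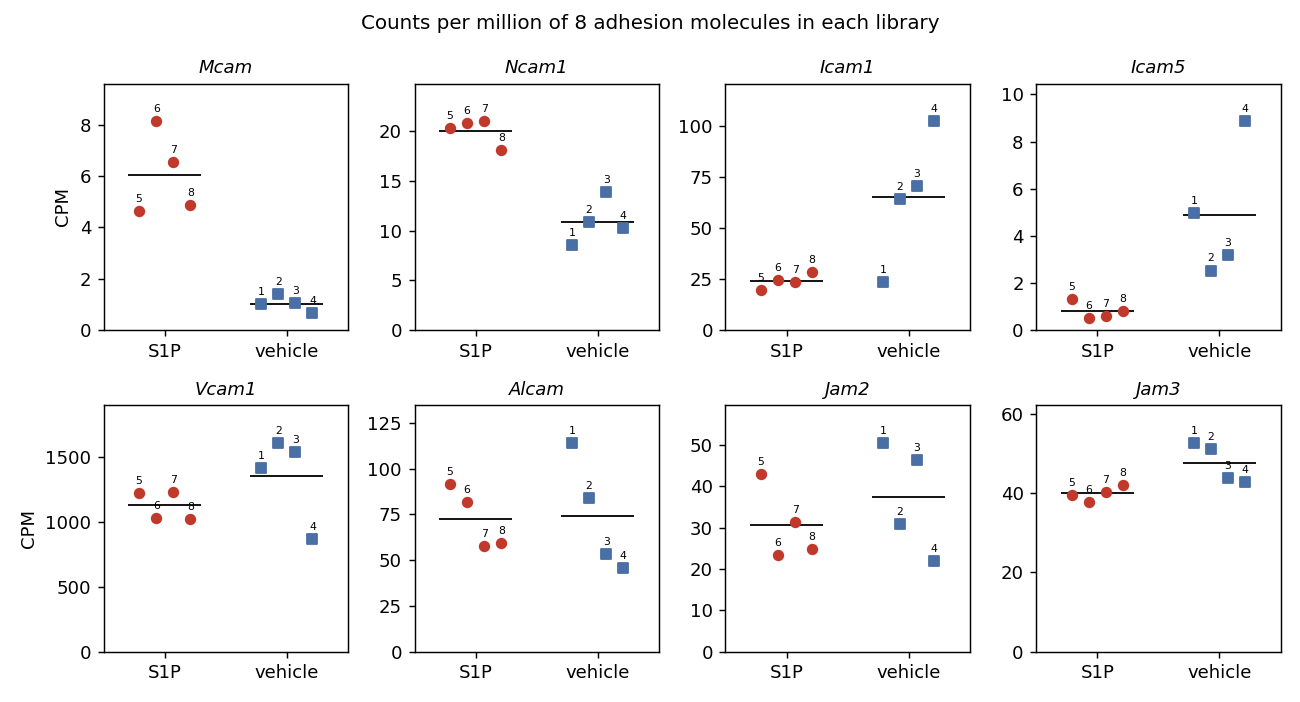
Levels in CPM of the 8 tested adhesion molecules, 1 point per library with its replicate number; red circles are S1P, blue squares are vehicle, and the black line is the group mean. Mcam and Ncam1 lie higher in every S1P library than in any vehicle library, Icam5 lies lower in every S1P library, and vehicle 1 of Icam1 lies among the S1P libraries.

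Mcam (ENSMUSG00000032135; mm9 chr9:43942352-43951010, plus strand) encodes CD146, a receptor of endothelial cells, pericytes and mesenchymal stromal cells that binds itself and laminin. S1P 5, 6, 7 and 8 had 64, 112, 89 and 68 reads, against 14, 19, 14 and 9 reads in vehicle 1, 2, 3 and 4. As levels these were 4.62, 8.14, 6.54 and 4.89 CPM in S1P and 0.994, 1.41, 1.04 and 0.654 CPM in vehicle. The lowest S1P library was above the highest vehicle library, and all 8 levels were low in absolute terms. The means were 6.05 ± 1.63 CPM in S1P and 1.02 ± 0.309 CPM in vehicle (SD, n = 4 each), a log2 fold change of 2.55 (SE 0.31, 95% interval 1.86 to 3.25) or 5.87-fold. Vehicle 4 was the lowest library, at -0.68 log2 units relative to the other vehicle libraries. The transcript GC content was 53.73%, above the median of 49.8%, whereas across genes vehicle 4 was higher at higher GC. Without vehicle 4 the log2 fold change of Mcam was 2.39. Mcam is also used as a pericyte marker, and the summed level of the smooth muscle and pericyte list was 1570 to 2891 CPM in S1P and 1185 to 1486 CPM in vehicle libraries. Of that list 9 of 10 genes were found and 6 tested, and 2 were called, both higher: Acta2 averaged 1656 CPM in S1P and 825 CPM in vehicle, and Tagln 141 CPM in S1P and 21.8 CPM in vehicle. The other 4 tested genes, Rgs5, Pdgfrb, Cspg4 and Notch3, had log2 differences of -0.36 to -0.06 and did not pass, so the higher sum came from Acta2 and Tagln. Its part in the Mcam difference was not tested. Its first 417 bases lie within the span of Gm10687, which had 0 to 2 reads in S1P and 0 to 1 in vehicle libraries.

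The stretch just before the start of Mcam is shown because it holds the one element found there, the cyclic AMP response element (CRE, TGACGTCA). It spans 40 to 11 bases upstream of the RefSeq start (RefSeq, GRCm38.p6 chr9:44134618-44134647, plus strand), with the element in capitals.
Mcam site: ccccgccccccTGACGTCAgcccccgacag
The GENCODE model of the gene starts 189 bases farther upstream, so these bases may be transcribed. The element was added to the search after the sequence had been seen, and 1.55% of 32851 RefSeq windows of 250 upstream bases hold it on either strand. The match is a description of the sequence and not a shown binding site.

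Alcam (ENSMUSG00000022636; chr16:52248909-52454387, minus strand) encodes CD166, which binds itself and the lymphocyte receptor CD6. It had 91.3, 82.0, 57.6 and 59.3 CPM in S1P 5 to 8, against 114, 83.8, 53.6 and 45.5 CPM in vehicle 1 to 4. The groups overlapped across nearly their whole range. The means were 72.6 ± 16.7 CPM in S1P and 74.2 ± 31.2 CPM in vehicle, a log2 difference of -0.03 (SE 0.29) whose 95% interval, -0.68 to 0.61, leaves room for changes of either sign.

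Bcam (ENSMUSG00000002980; chr7:20341280-20356565, minus strand) encodes the Lutheran glycoprotein, a receptor for laminin alpha 5. It had 2, 1, 0 and 0 reads in S1P 5 to 8 and 1, 0, 1 and 8 reads in vehicle 1 to 4. Nearly all of the vehicle reads came from vehicle 4, the library that stood apart, and the Bcam transcript is rich in GC (60.9%). No fold is given at these levels.

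Icam1 (ENSMUSG00000037405; chr9:20820204-20833441, plus strand) encodes the inflammation-inducible ligand of the leukocyte integrins LFA-1 and Mac-1. It had 19.3, 24.2, 23.6 and 28.5 CPM in S1P 5 to 8, against 23.7, 64.2, 70.3 and 102 CPM in vehicle 1 to 4. The S1P libraries lay close together, whereas vehicle 1 fell among them and vehicle 4 was the highest of all. The means were 23.9 ± 3.75 CPM in S1P and 65.1 ± 32.3 CPM in vehicle, a log2 fold change of -1.44 (SE 0.36, 95% interval -2.26 to -0.63) or 2.72-fold lower. Icam1 passed the threshold narrowly (adjusted p = 0.0404, edgeR quasi-likelihood test with Benjamini-Hochberg adjustment) and in only 6 of 16 alternative analyses, where the adjusted p ran from 0.00107 to 0.117. Of the 8 fits without 1 library, only that without vehicle 1 kept the call (log2 fold change -1.75, edgeR adjusted p = 0.00262). Without vehicle 4 the log2 fold change was -1.14 (edgeR adjusted p = 0.0619). The level of Icam1 in vehicle 4 was 1.11 log2 units above the mean of the other vehicle libraries, and the GC content of its transcript was 55.4%, against a median of 49.8% over tested genes.

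Icam5 (ENSMUSG00000032174; chr9:20836282-20843680, plus strand) encodes telencephalin, known from forebrain neurons, where it is a dendritic ligand of LFA-1. It had 18, 7, 8 and 11 reads in S1P 5 to 8 and 70, 34, 43 and 122 reads in vehicle 1 to 4. The levels were 1.30, 0.509, 0.588 and 0.790 CPM in S1P and 4.97, 2.52, 3.18 and 8.86 CPM in vehicle. Every S1P library was below every vehicle library, and vehicle 4 was again the highest. The means were 0.797 ± 0.356 CPM in S1P and 4.88 ± 2.85 CPM in vehicle, a log2 fold change of -2.60 (SE 0.48, 95% interval -3.67 to -1.53) or 6.07-fold lower. Without vehicle 4 it was -2.15. The transcript had a GC content of 62.95%, and vehicle 4 was 1.34 log2 units above the other vehicle libraries. The neuronal marker list, of which 5 of 10 genes were found, summed to 157 to 240 CPM in S1P and 69.5 to 96.5 CPM in vehicle libraries, the other way from Icam5, and nearly all of it was Mtap2.

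Icam1 and Icam5 are neighbours on chromosome 9, transcribed in the same direction, with Icam4 between them. Icam4, an erythroid integrin ligand, had 0 to 1 reads in S1P and 0 reads in vehicle libraries. The span of Icam1 ends 175 bases before Icam4 and 2840 bases before Icam5. A further entry of the count table, Gm20603, shares 891 bases with the Icam1 span and 720 with the Icam5 span, and it had 4 to 7 reads in S1P and 8 to 15 in vehicle libraries. How reads in these shared stretches were assigned is not given in the sources used here, so both values are uncertain to that extent.

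**Figure D2:**
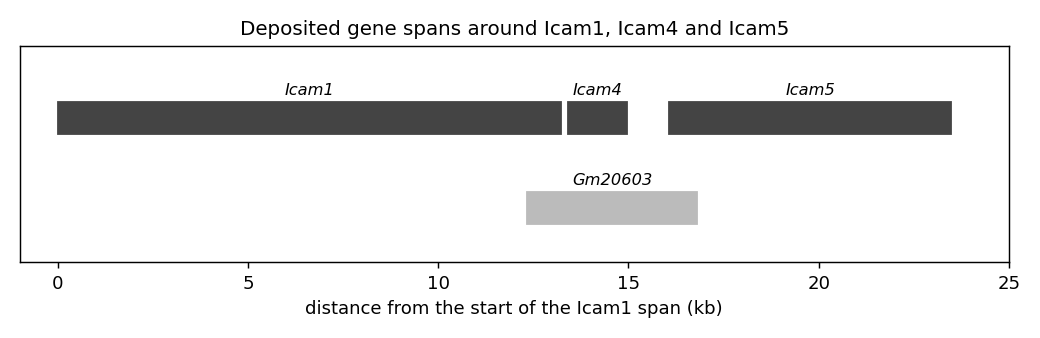
Spans of the count table's entries around Icam1, Icam4 and Icam5, drawn to scale against the distance in kb from the start of the Icam1 span. The dark bars are the 3 Icam genes and the grey bar is Gm20603, which reaches from the end of Icam1 across Icam4 into Icam5.

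The 250 bases upstream of both genes are shown because Icam1 and Icam5 were both lower in S1P as a group and sit in 1 cluster. Their vehicle libraries were not ordered alike. Vehicle 1 was the lowest vehicle library of Icam1 (23.7 CPM), whereas for Icam5 vehicle 2 was the lowest (2.52 CPM) and vehicle 1 had 4.97 CPM. The windows are GRCm38.p6 chr9:21015690-21015939 for Icam1 and chr9:21031788-21032037 for Icam5, both on the plus strand (RefSeq). The GENCODE models of these genes start farther downstream than the RefSeq starts, by 45 bases for Icam1 and 35 for Icam5. Capitals mark the match to an NF-kB site, 154 to 145 bases upstream of the RefSeq start of Icam1.
Icam1: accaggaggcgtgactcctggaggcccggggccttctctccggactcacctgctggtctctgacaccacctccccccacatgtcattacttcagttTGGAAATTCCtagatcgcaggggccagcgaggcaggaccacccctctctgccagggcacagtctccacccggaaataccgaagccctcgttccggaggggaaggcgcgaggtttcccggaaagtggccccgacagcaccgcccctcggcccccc
Icam5: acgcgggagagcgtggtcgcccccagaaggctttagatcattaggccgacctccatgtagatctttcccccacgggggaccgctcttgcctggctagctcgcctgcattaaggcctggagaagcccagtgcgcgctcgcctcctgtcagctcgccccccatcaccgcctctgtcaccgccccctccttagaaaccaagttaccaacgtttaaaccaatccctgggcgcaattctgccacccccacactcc
The search covered both strands for the NF-kB site, the CArG box bound by serum response factor, the AP-1 site TGANTCA, the TEAD site GGAATG and the CRE. The NF-kB site occurred in 7.26% of the 32851 windows, the CArG box in 1.47%, the AP-1 site in 6.75% and the TEAD site in 12.64%. None of these letters were found in the Icam5 window, which says nothing about the factors. Both windows were richer in GC (65.2% for Icam1 and 61.6% for Icam5) than the median window (52.4%), with 15 and 16 CG dinucleotides against a median of 6. RefSeq windows were matched for 5 members (Mcam, Icam1, Icam5, Alcam and Bcam), and the windows of Alcam and Bcam held none of the 5 motifs.

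Vcam1 (ENSMUSG00000027962; chr3:115812738-115832806, minus strand) encodes the ligand of integrin alpha 4 beta 1 and is a surface marker of stromal cells. It had 1220, 1027, 1230 and 1023 CPM in S1P 5 to 8, against 1412, 1606, 1536 and 866 CPM in vehicle 1 to 4. Vehicle 1, 2 and 3 were above all S1P libraries, and vehicle 4 was below all of them. The means were 1125 ± 115 CPM in S1P and 1355 ± 336 CPM in vehicle, a log2 difference of -0.27 (SE 0.19, 95% interval -0.70 to 0.17) that did not pass the threshold. Without vehicle 4 the log2 fold change was -0.43 (edgeR adjusted p = 0.0368), and over the 16 alternatives, of which 3 gave a call, the adjusted p ran from 0.0333 to 0.618. The Vcam1 transcript is poor in GC (44.1%), and its level in vehicle 4 was -0.81 log2 units relative to the other vehicle libraries, opposite in sign to Icam1 and Icam5.

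Ncam1 (ENSMUSG00000039542; chr9:49310057-49607227, minus strand) encodes the neural cell adhesion molecule, which binds itself and FGF receptors and can carry polysialic acid. It had 20.3, 20.9, 21.0 and 18.1 CPM in S1P 5 to 8, against 8.52, 10.8, 13.9 and 10.2 CPM in vehicle 1 to 4. The S1P libraries lay within a narrow range above all vehicle libraries. The means were 20.1 ± 1.34 CPM in S1P and 10.9 ± 2.25 CPM in vehicle, a log2 fold change of 0.88 (SE 0.17, 95% interval 0.50 to 1.27) or 1.84-fold. Vehicle 4 lay -0.09 log2 units from the other vehicle libraries, so this member differed little in the library that stood apart. The call was kept in 15 of 16 alternatives and was lost without S1P 6 (log2 fold change 0.87, edgeR adjusted p = 0.0563), with a range of 8.44e-05 to 0.0563 over the 16. The summed neuronal markers were also higher in every S1P library than in any vehicle library (157 to 240 CPM in S1P and 69.5 to 96.5 CPM in vehicle), with 1 of 2 tested genes called, Mtap2, a microtubule-associated protein. Nearly all of that sum was Mtap2, at a mean of 195 CPM in S1P and 78.9 CPM in vehicle. The other tested marker, Syn1, had a log2 difference of -0.32 and did not pass. Among the untested ones, Syp (0.127 CPM in S1P, 0.257 in vehicle) and Gap43 (0.454 and 0.825) were lower in S1P, and Tubb3 (1.05 and 0.472) was higher. The part of these markers in the Ncam1 difference was not tested.

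Jam2 (ENSMUSG00000053062; chr16:84774168-84826373, plus strand) and Jam3 (ENSMUSG00000031990; chr9:26904769-26963203, minus strand) encode junctional adhesion molecules that bind each other at cell contacts and engage the polarity protein PAR-3. Jam2 had 43.0, 23.5, 31.3 and 24.8 CPM in S1P 5 to 8, against 50.5, 30.9, 46.4 and 21.9 CPM in vehicle 1 to 4. The groups overlapped, with vehicle 4 the lowest library. The means of Jam2 were 30.6 ± 8.93 CPM in S1P and 37.4 ± 13.3 CPM in vehicle, a log2 difference of -0.29 (SE 0.29, 95% interval -0.93 to 0.35). Jam3 had 39.6, 37.8, 40.3 and 42.1 CPM in S1P 5 to 8, against 52.7, 51.1, 43.9 and 42.9 CPM in vehicle 1 to 4. The Jam3 groups did not overlap, but the highest S1P and the lowest vehicle library were close to each other. The means of Jam3 were 39.9 ± 1.78 CPM in S1P and 47.6 ± 4.99 CPM in vehicle, a log2 difference of -0.25 (SE 0.11, 95% interval -0.50 to -0.01). Neither gene passed the threshold. In edgeR's test on all 8 libraries, Jam3 (adjusted p = 0.192) was the member nearest to the threshold on its outer side. Icam1 was the member nearest on its inner side. Over the 16 alternatives, however, Vcam1 was called in 3 and Jam3 in 1.

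**Figure D3:**
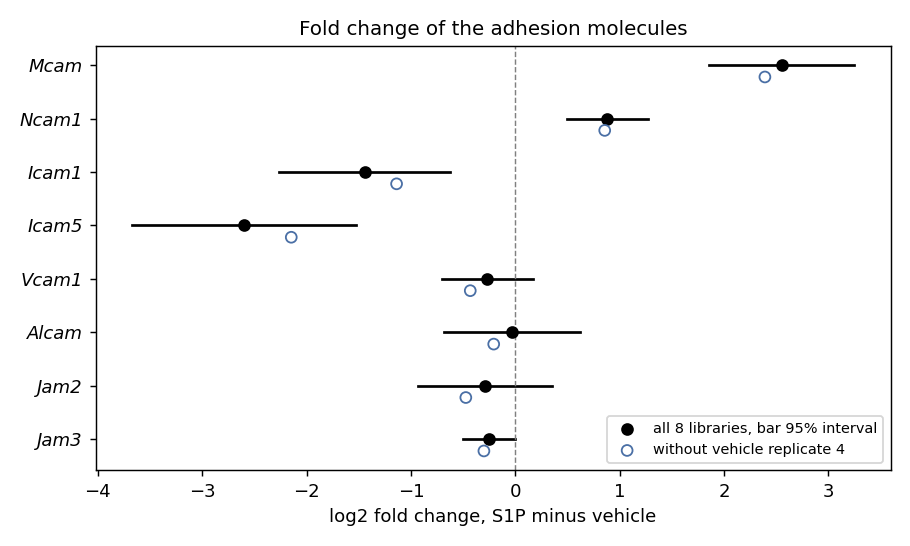
Log2 fold change, S1P minus vehicle, of the 8 tested members over all 8 libraries (black, with the 95% interval) and without vehicle 4 (open blue). Leaving out vehicle 4 moves Icam1 to -1.14 and Icam5 to -2.15, towards 0, and Vcam1 to -0.43, away from 0.

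Levels of different genes were compared as CPM per kb of transcript. Vcam1 was far above the others at 324 CPM per kb in S1P (295 to 355) and 391 in vehicle (250 to 463), and it made up 84.6 to 87.1% of the members' summed level in S1P and 75.8 to 86.0% in vehicle libraries. In S1P-treated cells Jam3 followed at 20.6 CPM per kb (19.5 to 21.7), then Alcam at 12.0 (9.55 to 15.1), Icam1 at 9.44 (7.63 to 11.3) and Jam2 at 7.01 (5.37 to 9.85). Alcam overlapped Icam1 and Jam2, and Icam1 overlapped Jam2, across the S1P libraries. Ncam1 at 3.06 CPM per kb (2.76 to 3.20) and Mcam at 2.02 (1.55 to 2.72) came next, without overlap, and Icam5 at 0.27 (0.173 to 0.441) and Bcam at 0.0223 were last.

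In vehicle-treated cells the order below Vcam1 was Icam1 at 25.7 CPM per kb (9.33 to 40.3), Jam3 at 24.5 (22.1 to 27.1), Alcam at 12.3 (7.53 to 18.9) and Jam2 at 8.56 (5.02 to 11.6). Icam1 overlapped Jam3, Alcam and Jam2, and Alcam overlapped Jam2. Icam5 and Ncam1 had the same mean of 1.66 CPM per kb, with ranges of 0.856 to 3.01 and 1.30 to 2.12, and Mcam followed at 0.342 (0.219 to 0.472). Mcam made up 0.377 to 0.778% of the members' summed level in S1P and 0.0663 to 0.0876% in vehicle libraries, and Icam1 1.86 to 3.23% in S1P and 1.96 to 12.2% in vehicle libraries.

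**Figure D4:**
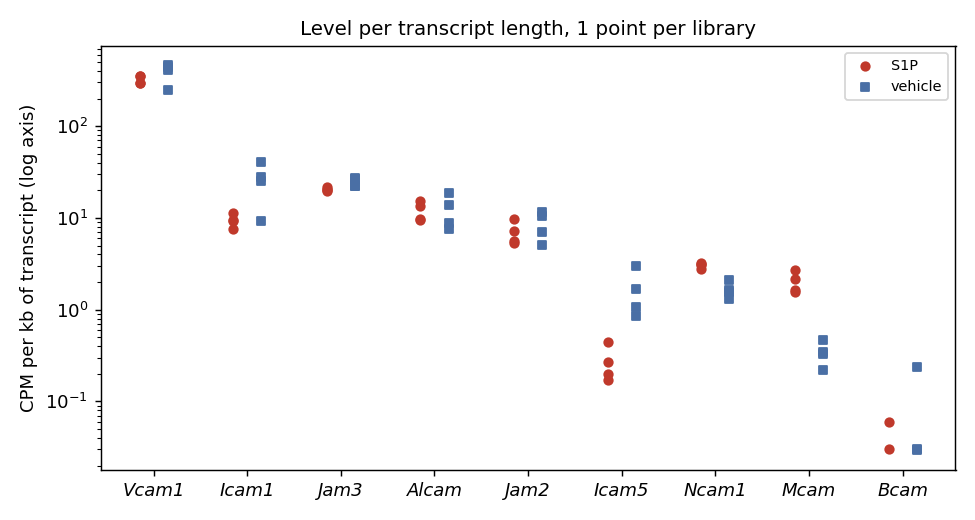
Level of the 9 members found, in CPM per kb of transcript on a log axis, 1 point per library (red circles S1P, blue squares vehicle), ordered by the vehicle mean. Libraries with no Bcam read are not drawn on the log axis. Vcam1 is the highest member in every library, and Mcam and Icam5 exchange places between the groups.

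For each member that was called, the genes with the most similar profile were found by the Pearson correlation of log2 CPM over the 8 libraries, among genes with a mean of at least 5 CPM. The 8 libraries form 2 groups, so any gene that differs between them correlates, and the values are a description only. For Mcam these were Wdr67 (r = 0.989), Basp1 (0.988) and Rad54b (0.988). For Icam1 they were Nod1 (r = 0.99), an intracellular sensor of bacterial peptidoglycan, Tbc1d20 (0.985) and Tgm2 (0.975), a transglutaminase, none of which was itself called. For Icam5 they were Ptn (r = 0.995), which encodes the growth factor pleiotrophin, Mapre3 (0.99) and Dclk2 (0.988). For Ncam1 they were Ctgf (r = 0.988), a matricellular protein gene, Ncapd3 (0.987), a condensin subunit gene that lies 1672 bases from Jam3, and Oip5 (0.987).

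The wider immunoglobulin-type adhesion family, a list of 63 further genes set by role, gave 44 found and 26 tested genes. None was higher, 3 were lower and 23 did not pass the edgeR threshold, against 5.6% higher and 2.9% lower over all tested genes. The median log2 fold change was -0.06, beside -0.04 over all tested genes. At an unadjusted p under 0.05, edgeR gave 0 higher and 6 lower. By adjusted p, DESeq2 and limma-voom each called 0 higher and 3 lower. Of all 11844 tested genes, DESeq2 called 967 higher and 804 lower, and limma-voom 697 and 328. The share of all genes at an unadjusted p under 0.05 was not computed, so the unadjusted counts here and below have no background. Cdon, a co-receptor for hedgehog ligands that also acts in myogenic cell contact, had 117, 106, 142 and 149 CPM in S1P 5 to 8 and 196, 250, 246 and 209 CPM in vehicle 1 to 4, with no overlap (log2 fold change -0.81, SE 0.14, edgeR adjusted p = 0.00929). Negr1, an IgLON family neuronal growth regulator, averaged 4.61 ± 1.06 CPM in S1P and 16.0 ± 7.23 CPM in vehicle (log2 fold change -1.79, SE 0.34, edgeR adjusted p = 0.0128). Clmp, a tight junction-associated molecule, averaged 77.4 ± 5.57 CPM in S1P and 135 ± 29.04 CPM in vehicle (log2 fold change -0.81, SE 0.16, edgeR adjusted p = 0.0144). The S1P and vehicle libraries did not overlap for any of the 3, nor for Kirrel, against 19.1% of all tested genes without overlap. Cdon was called in all 16 alternatives, Negr1 was lost without S1P 8 (edgeR adjusted p = 0.0514), and Clmp was lost without S1P 6 (0.0583) and without S1P 8 (0.0576).

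The 4 most abundant genes of that list did not pass the threshold. Nptn, which encodes neuroplastin, averaged 583 ± 16.5 CPM in S1P and 562 ± 83.1 CPM in vehicle (log2 difference 0.05). Bsg, which encodes basigin, an inducer of metalloproteinases, averaged 544 ± 85.6 CPM in S1P and 618 ± 89.3 CPM in vehicle (-0.19). Kirrel averaged 334 ± 16.1 CPM in S1P and 291 ± 14.5 CPM in vehicle (0.20), and Mpzl1 218 ± 40.4 CPM in S1P and 288 ± 54.9 CPM in vehicle (-0.40). Of the genes below the filter, Pecam1 had 4 reads over the S1P and 14 over the vehicle libraries, and Esam had 5 in S1P and 3 in vehicle.

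Ligands and counter-receptors of the members were read as a list of 19 genes, all found, of which 12 were tested. Most leukocyte integrin chains and CD6 had few reads. Itgal and Itgam each had 0 reads over the S1P and 4 over the vehicle libraries, and Itga4, the alpha chain that binds VCAM1, had 0 reads in S1P and 1 in vehicle. Itgb2, the beta chain shared by LFA-1 and Mac-1, was tested, with 3, 2, 18 and 4 reads in S1P 5 to 8 and 21, 12, 65 and 25 reads in vehicle 1 to 4. Its groups overlapped through S1P 7, and the log2 difference of -2.18 (SE 0.74, edgeR adjusted p = 0.105) did not pass; it was chosen for mention after its values were seen. None of the 12 was called higher and 2 were called lower, against 5.6% higher and 2.9% lower over all tested genes, and the number lower was 0 without S1P 6 or without S1P 8. At an unadjusted p under 0.05, edgeR gave 1 higher and 5 lower, counts with no all-gene share beside them. By adjusted p, DESeq2 called 0 higher and 3 lower, and limma-voom 0 higher and 2 lower. Of all 11844 tested genes, DESeq2 called 967 higher and 804 lower, and limma-voom 697 and 328. Gfra1, the GDNF receptor subunit that can signal with NCAM1, had 17.7, 11.6, 35.98 and 21.3 CPM in S1P 5 to 8 and 49.5, 74.1, 192 and 91.2 CPM in vehicle 1 to 4, without overlap (log2 fold change -2.23, SE 0.46, edgeR adjusted p = 0.0176). Itga9, an integrin chain that also binds VCAM1, averaged 3.48 ± 0.496 CPM in S1P and 7.52 ± 1.99 CPM in vehicle (log2 fold change -1.11, SE 0.24, edgeR adjusted p = 0.0224). The Gfra1 call was lost without S1P 6 (edgeR adjusted p = 0.0592) and without S1P 8 (0.0621). The Itga9 call was lost without vehicle 2, vehicle 3, S1P 6, S1P 7 or S1P 8, with edgeR adjusted p-values of 0.0538 to 0.0861.

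The most abundant genes of the ligand list were Itgb1, the common beta chain, and Lgals1, a galectin. Itgb1 averaged 2202 ± 135 CPM in S1P and 1691 ± 268 CPM in vehicle (log2 difference 0.38, not past the threshold), with no overlap between the groups. Lgals1 averaged 981 ± 105 CPM in S1P and 941 ± 301 CPM in vehicle (0.06). The list's median was -0.36, beside -0.04 over all tested genes, with 4 of 12 values above 0. The cause of the low median was not tested.

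Among 15 cytoplasmic partners that link adhesion molecules to actin or polarity complexes, all were tested and none was called by edgeR. Over all tested genes, edgeR called 5.6% higher and 2.9% lower. At an unadjusted p under 0.05, edgeR gave 3 higher and 0 lower, counts with no all-gene share beside them. By adjusted p, DESeq2 and limma-voom each called 1 higher and 0 lower. Of all 11844 tested genes, DESeq2 called 967 higher and 804 lower, and limma-voom 697 and 328. The median log2 fold change was 0.23, beside -0.04 over all tested genes, with 11 of 15 above 0. Msn, which encodes moesin, a linker between ICAM tails and actin, averaged 805 ± 53.5 CPM in S1P and 601 ± 58.2 CPM in vehicle, with no overlap (log2 difference 0.42, SE 0.11, edgeR adjusted p = 0.0527). Its adjusted p ran from 0.00348 to 0.158 over 16 alternatives, 5 of which gave a call, 1 of them the fit without vehicle 4 (edgeR adjusted p = 0.0383). Spnb2, which encodes the spectrin chain that NCAM1 binds, averaged 1121 ± 78.6 CPM in S1P and 1135 ± 167 CPM in vehicle (-0.02).

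Of 10 listed enzymes that cleave or modify members, 9 were tested; 4 fell, none rose and 5 did not pass, against 5.6% higher and 2.9% lower over all tested genes. The number lower was 1 without S1P 6 or without S1P 8. At an unadjusted p under 0.05, edgeR gave 0 higher and 6 lower, counts with no all-gene share beside them. By adjusted p, DESeq2 called 0 higher and 6 lower, and limma-voom 0 higher and 4 lower. DESeq2 called 967 higher and 804 lower of all 11844 tested genes, and limma-voom 697 and 328. Mmp9, a gelatinase able to cleave ICAM1, had 1.16, 1.67, 2.57 and 3.09 CPM in S1P 5 to 8 and 9.38, 16.4, 23.2 and 25.6 CPM in vehicle 1 to 4. All S1P libraries lay below all vehicle libraries (log2 fold change -3.13, SE 0.40, 8.75-fold lower, edgeR adjusted p = 0.00321). The membrane-anchored protease Mmp14 averaged 372 ± 42.7 CPM in S1P and 653 ± 123 CPM in vehicle (log2 fold change -0.81, SE 0.15, edgeR adjusted p = 0.0123).

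The gelatinase Mmp2 averaged 373 ± 21.9 CPM in S1P and 566 ± 60.6 CPM in vehicle (log2 fold change -0.60, SE 0.11, edgeR adjusted p = 0.0127). Without S1P 6 or without S1P 8 the calls of Mmp14 and Mmp2 were lost, with edgeR adjusted p-values of 0.0538 to 0.0580, whereas Mmp9 was called in all 16 alternatives. Bace1, which encodes the beta-secretase, averaged 95.7 ± 5.30 CPM in S1P and 129 ± 9.88 CPM in vehicle (-0.44, SE 0.10, edgeR adjusted p = 0.0256, kept in 10 of 16 alternatives and lost without vehicle 2 or any 1 of the S1P libraries, with a highest adjusted p of 0.1003). Adam17, the main sheddase of ICAM1 and VCAM1, averaged 138 ± 19.8 CPM in S1P and 218 ± 48.3 CPM in vehicle (log2 difference -0.66, SE 0.18, edgeR adjusted p = 0.0516); it falls outside the rule for named genes and was chosen after its values were seen. The median of the 9 genes was -0.60, beside -0.04 over all tested genes, with 1 above 0.

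**Figure D5:**
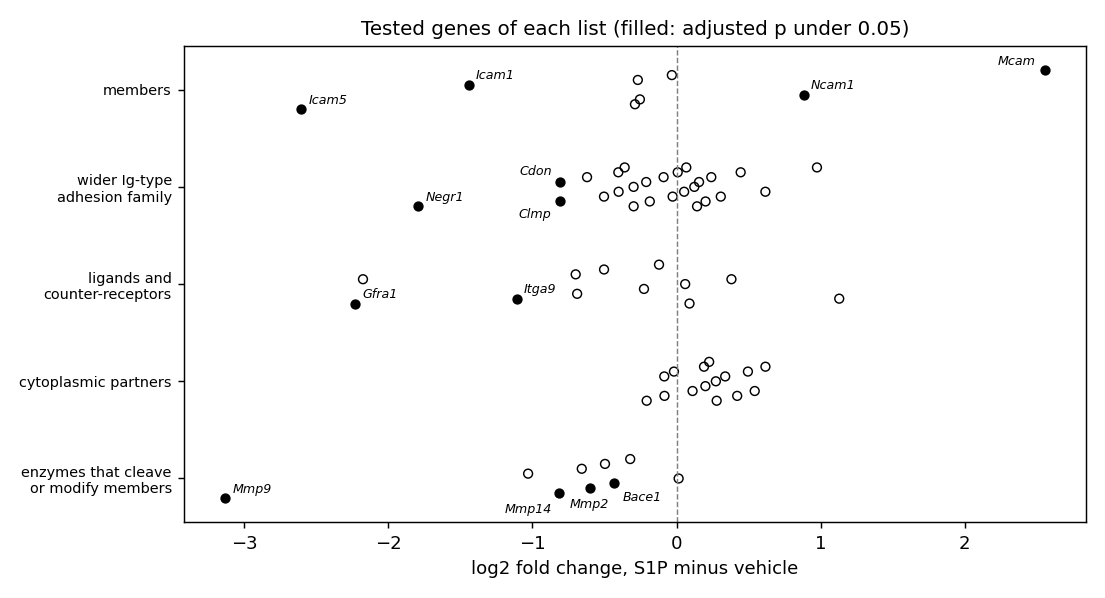
Log2 fold change, S1P minus vehicle, of every tested gene of the members and of the 4 related lists, 1 point per gene and spread vertically for legibility. Filled points have an edgeR adjusted p under 0.05: 2 higher and 2 lower among members, 3 lower in the wider family, 2 lower among ligands, none among cytoplasmic partners and 4 lower among enzymes.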

How the data were processed

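The deposited file holds whole-number read counts per Ensembl gene with symbols and mm9 coordinates, deposited without a normalisation factor. The nearly equal library totals leave unknown whether the authors reduced the libraries to a common size, so the totals may not be the sequenced depth. Reads were processed with STAR 2.5.3a and mm9, per the submitters' processing notes (the counting tool and its gene annotation: not given in the sources used here). Columns were assigned to samples through the sample titles.

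Genes were kept by filterByExpr (minimum count 10) of edgeR 4.0.16 in R 4.3.3, composition factors were set by the trimmed mean of M-values, and S1P was tested against vehicle by edgeR's robust quasi-likelihood test over the whole table, with Benjamini-Hochberg adjustment (threshold 0.05) and treatment as the only term. SEs come from the F statistic. The script was tested on simulated data. Transcript lengths and GC come from GENCODE M21, and upstream sequences from RefSeq windows. Of the list genes only Clmp was matched by identifier, as the table lists it under another symbol. The neuronal marker Map2 was also matched by identifier and is named here by its deposited symbol, Mtap2. Alternatives were other factors, other filters, DESeq2 1.42.0, limma-voom (limma 3.58.1), 1 surrogate variable (sva 3.50.0), leaving out libraries singly, and 6 libraries.

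The members and lists were chosen with earlier results of these data known. Named genes are all members, the called genes of each list, its most abundant genes (4 in the wider family, 2 in each other list), and the 3 genes most similar to each called member. Outside this rule, Pecam1, Esam, Itgal, Itgam, Itga4, Itgb2, Adam17, single cell type markers and genes neighbouring members are also named. Intervals and floors cover counting or between-library error only, and reads are not independent molecules.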

Additional observations from a re-analysis of the deposited data

Results flagged for a closer look

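Among the named genes, 52 highest or lowest values per group of 4 libraries were looked at for distance from the other 3, and 5 lay far from them by Dixon's criterion, a distance that chance alone gives in about 5% of groups. In vehicle 4, Bcam was high at 0.581 CPM while the other vehicle libraries held 0 to 0.074 CPM, and Nptn was low at 437.8 CPM while the others held 593 to 612 CPM. In S1P 5, Bsg was high at 671.9 CPM beside 495 to 508 CPM in the other S1P libraries. Spnb2 was low in 1 library of each group, at 1005 CPM in S1P 7 beside 1143 to 1170 CPM in the other S1P libraries, and at 887.7 CPM in vehicle 3 beside 1189 to 1249 CPM in the other vehicle libraries. None of these 5 values belongs to a called gene.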

How the results depend on the processing

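Mcam and Icam5 were called in all 16 alternatives (log2 fold changes of 2.38 to 2.74 and -2.94 to -2.15), Ncam1 in 15, Icam1 in 6, Vcam1 in 3 and Jam3 in 1 (with a surrogate variable). The number of members lower was 1 without a filter and with limma-voom and 4 with 1 surrogate variable, and 1 to 2 without 1 library; members higher were 1 to 2, with 1 only without S1P 6. In the wider family 1 was higher with a surrogate variable, and 1 to 3 were lower without 1 library, with 1 without S1P 8. Ligands higher were 1 with a surrogate variable and with 6 libraries (vehicle 4 and S1P 5 left out), and 0 to 1 without 1 library; ligands lower were 0 to 3 without 1 library, with 0 without S1P 6 or 8. Cytoplasmic partners higher were 1 with library totals only, DESeq2 and limma-voom, 4 with a surrogate variable, 3 with 6 libraries, and 0 to 4 without 1 library, with 4 without vehicle 4. Enzymes lower were 1 to 5 without 1 library, with 1 without S1P 6 or 8, and 6 with DESeq2 and with 6 libraries. Differences near 0 changed sign: Alcam was 0.034 with limma-voom and -0.207 to 0.2295 without 1 library, Lgals1 -0.071 to 0.306, Nptn -0.065 with 6 libraries and -0.049 to 0.0965 without 1 library, and Spnb2 0.011 with a surrogate variable and -0.119 to 0.0325 without 1 library. The causes were not tested. Over all genes, edgeR called 663 higher and 344 lower (65.8% higher), DESeq2 967 and 804 (54.6% higher), and a surrogate variable 1471 and 1015. Calls numbered 1133 higher and 723 lower without vehicle 4, 333 and 101 without S1P 6, 408 and 151 without S1P 7, 360 and 108 without S1P 8, and 1178 and 934 with 6 libraries. The alternatives for the ligand, partner and enzyme lists and for single genes outside the members were chosen after seeing the data. No paired analysis was possible because the groups share no replicate number.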
